A study of Mus musculus with 16 samples.

Results

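The expression of 10 genes of the fibroblast and of the non-collagen extracellular matrix was followed in mouse colon: Lum, Dcn, Bgn, Fbn1, Fn1, Postn, Sparc, Fap, Pdgfra and Thy1. They were taken by name, as the probes whose gene name on the array equals one of these symbols, and not by their values. All 10 were found, among 24541 genes tested and 34947 named genes and transcripts, and they were read by 11 probes, because Sparc has 2.

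The tissue was macroscopically tumour-free colon of 16 ApcMin/+ mice, taken at day 28. All groups carry the ApcMin/+ genotype, an inactivating mutation in one copy of the tumour suppressor Apc, so the Sham mice are not healthy wild-type mice. The 4 Sham mice drank water alone. The 6 Control mice had 3 days of DSS at 1.5% (w/v) in their water, and received saline. DSS, dextran sulphate sodium, injures the colonic epithelium and causes colitis. The 6 5-ASA mice had the same DSS course and received 5-aminosalicylic acid (5-ASA), an anti-inflammatory drug of ulcerative colitis. The labels disagree on the dosing: one text has 5-ASA or saline given into the colorectum for 28 days, another has 5-ASA or plain water by mouth for 25 days after DSS. The age, sex and source of the mice are not given in the sources used here, and replicates are called biological, with 1 array per replicate.

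Fibroblasts of the gut wall lay down and repair the matrix beneath the epithelium. Collagen fibrils are spaced by small leucine-rich proteoglycans such as lumican, decorin and biglycan. Elastic microfibrils are built on fibrillin, and cells grip the matrix through fibronectin, while periostin and SPARC are secreted proteins that tune how cells and matrix meet. Several of these genes are not restricted to fibroblasts: Thy1 is also a T cell and neuron surface protein, and smooth muscle, vessel and glial cells make some of the others.

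Each gene was read by a 60-base probe, and these short sequences are what the values below rest on, so 30 bases of each probe are shown, 5′ to 3′, as deposited in the scanner files. Capitals mark AATAAA, the polyadenylation signal hexamer, which 3 of the 11 probes hold and 10.1% of all 55681 probes. Positions are those of the mm9 build in the files, for the whole probe. Exon and UTR annotation of that build was not used here.
Lum, chr10:97035210-97035269, plus strand: taagcatttgcacggttacttagtgaaact
Dcn, chr10:96980233-96980292, plus strand: aacaccttcagatgtgtctatgtgcgttct
Bgn, chrX:70738554-70738613, plus strand: caatcagattcggatgattgagaatgggag
Fbn1, chr2:125126727-125126786, minus strand: tcacttatgagtatggtgcagtacatgtaa
Fn1, chr1:71632116-71632175, minus strand: ggtgattatttttataagcacatgccaacg
Postn, chr3:54194840-54194899, plus strand: ctgcagagttggtaattcagaaaactcaag
Sparc, probe used, chr11:55208939-55208998, minus strand: ggctgttccgcctggggataaggtgctaac
Sparc, other probe, chr11:55208003-55208061, minus strand: caagtctttcaaAATAAAaagtaacaactt
Fap, chr2:62339001-62339060, minus strand: ccgggtagcggaAATAAAgtcagatgctca
Pdgfra, chr5:75593888-75593947, plus strand: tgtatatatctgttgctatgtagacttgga
Thy1, chr9:43856591-43856650, plus strand: aggaaagaaaactgcacAATAAAaccaagc
Dcn and Lum are next to each other among protein-coding genes on chromosome 10, with Kera, a further proteoglycan of the same family, on the far side of Lum.

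Values are log2 of the background-subtracted spot signal relative to the 75th percentile of the same array, so a value of 0 means a probe as bright as that percentile. They compare a gene between mice, and not one gene with another, because probes differ in how well they bind. All 11 probes were well above background on 16 of 16 arrays and none was saturated, so no level is a bound. The number of mice limits the precision. Both of the 2 slides carried every group (2 Sham, 3 Control and 3 5-ASA arrays per slide). A slide has 2 rows of arrays, and the Sham mice, with Control 1, 2, 4 and 5, were all in row 1, while Control 3 and 6 lay in row 2 with the 5-ASA mice. Row 1 arrays had 59.8% to 65.2% of spots well above background, and row 2 arrays 53.0% to 57.7%. In 5-ASA against Sham, row and group cannot be told apart.

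The label of the tissue was checked against marker genes. All 9 epithelial markers were measured, and their summed level, as a multiple of the 75th percentile, was 1136 to 1307 in Sham, 1240 to 1370 in Control and 1194 to 1402 in 5-ASA. All 10 fibroblast markers were measured, with a summed level of 172 to 200.4 in Sham, 106 to 184 in Control and 142 to 186 in 5-ASA, and this list shares Pdgfra, Lum, Dcn, Fap and Thy1 with the 10 genes. In whole tissue, fewer cells of a type and less RNA per cell cannot be told apart.

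Control against Sham compares mice after the DSS course and its recovery, which also received saline, with mice on water alone. DSS and the saline dosing cannot be told apart in it. In the Control group, 9 of the 10 genes had a lower mean than in Sham, and Pdgfra alone had a higher one. The median difference of the 10 genes was -0.29 on the log2 scale, beside 0.0077 over all genes, of which 48.4% were lower in Control. None of the 10 was called by limma at an adjusted p of 0.05, where 0.053% of all genes were called (13 genes, 12 of them lower). At an unadjusted p under 0.05 in limma, Lum, Fap, Sparc and Thy1 were lower, 4 of 10 genes, beside 3.23% of all genes lower.

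5-ASA against Control asks whether the drug altered the tissue after DSS. Here 9 of the 10 genes had the higher mean in 5-ASA, Pdgfra again being the exception, with a median difference of 0.27 beside -0.0013 over all genes and 49.6% of all genes higher. None of the 10 was called by limma, and 0.0% of all genes were, while 992 genes (4.04%) had an unadjusted p under 0.05. At an unadjusted p under 0.05, Fn1, Sparc and Fbn1 were higher, 3 of 10 genes, beside 1.41% of all genes higher. 5-ASA against Sham gave 4 genes higher and 6 lower, with a median of -0.0048 beside 0.0063 over all genes, of which 48.6% were lower. None was called, beside 0.053% of all genes, and Thy1 alone had an unadjusted p under 0.05, beside 4.71% of all genes lower at that limit. The first 2 comparisons share the 6 Control mice, so a low Control value moves both, and the opposite directions are not separate evidence.

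**Figure D1:**
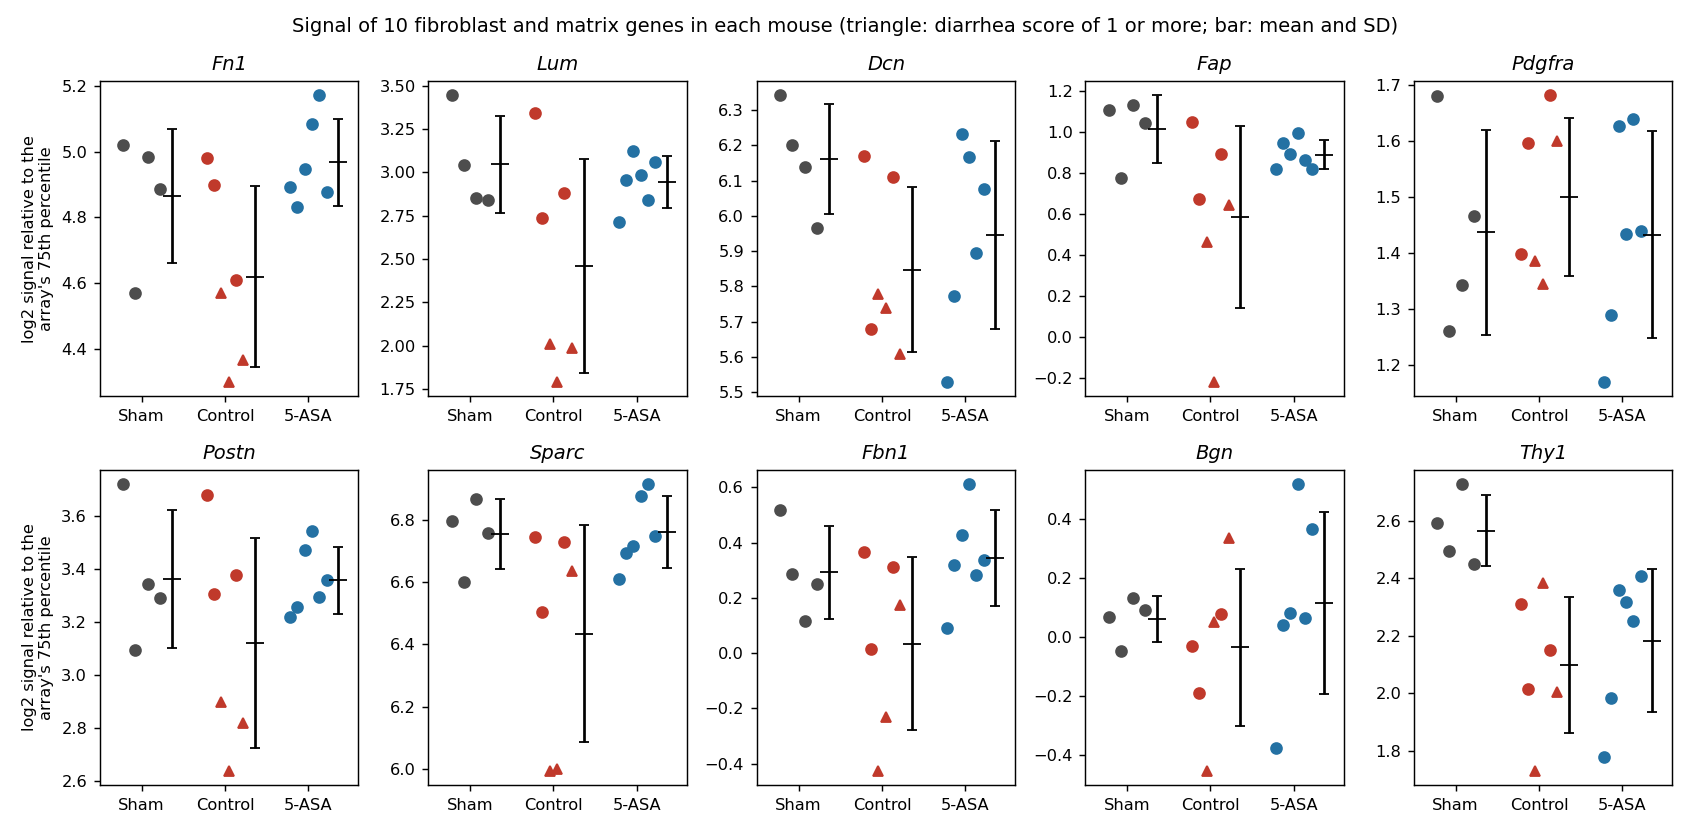
Log2 signal relative to the array's 75th percentile (vertical axis, a separate scale per gene) for each mouse of the Sham, Control and 5-ASA groups, with mean and SD as a bar. Triangles are the 3 Control mice with a diarrhea score of 1 or more, which hold the lowest 3 Control values of Lum, Fn1, Fap and Postn.

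The small leucine-rich proteoglycans come first. Lum encodes lumican, which limits the width of collagen fibrils. It measured 3.44, 3.04, 2.85 and 2.84 in Sham 1 to 4. Control ranged from 1.79 to 3.34 with a median of 2.37, and 5-ASA from 2.71 to 3.12 with a median of 2.97. The Control mice formed 2 sets: Control 3, 4 and 6 at 2.01, 1.79 and 1.99, below every Sham and every 5-ASA mouse, and the other 3 from 2.74 to 3.34, which overlapped both groups. The mean was 3.05 ± 0.28 (SD, n = 4) in Sham, 2.46 ± 0.62 (SD, n = 6) in Control and 2.95 ± 0.15 (SD, n = 6) in 5-ASA. Control was -0.59 (SE 0.26) from Sham, which is 1.50-fold lower (limma, adjusted p = 0.559). The difference was -0.36 with the array row as a covariate, a value that rests on Control 1, 2, 4 and 5, in the row of the Sham arrays. 5-ASA was 0.49 (SE 0.23) from Control, 1.40-fold higher (limma, adjusted p = 0.999), and 0.95 with the row as a covariate. The latter value rests on Control 3 and 6 alone, the Control mice in the row of the 5-ASA arrays, both in the low set.

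Dcn encodes decorin, a proteoglycan that binds collagen and TGF-beta. It measured 6.34, 6.20, 6.14 and 5.97 in the Sham mice, 5.61 to 6.17 in Control (median 5.76) and 5.53 to 6.23 in 5-ASA (median 5.99). All 6 Control mice lay at or below the Sham median of 6.17, yet Control 1 and 5 (6.17 and 6.11) overlapped Sham. Control was -0.31 (SE 0.15) from Sham (limma, adjusted p = 0.559) and 5-ASA was 0.10 (SE 0.13) from Control. 5-ASA was -0.22 (SE 0.15) from Sham, with a 95% interval from -0.53 to 0.10, and Lum was -0.10 (SE 0.26) from Sham. The Dcn probe sits in spot row 383 of 384, close to the edge of the array. In the last 8 spot rows the differences of Control from Sham spread more widely than inside, with a 10th percentile of -1.003 against -0.31. Bright probes there, with a mean above 3 as Dcn has, had a 10th percentile of -0.12 and a median of 0.03.

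Bgn encodes biglycan, a close relative of decorin that also acts as a danger signal to immune cells. It measured 0.07, -0.05, 0.13 and 0.09 in Sham, -0.45 to 0.34 in Control (median 0.01) and -0.38 to 0.52 in 5-ASA (median 0.07). Both DSS groups spread on either side of all 4 Sham values. Control was -0.10 (SE 0.16) from Sham, with a 95% interval from -0.44 to 0.25, and 5-ASA was 0.15 (SE 0.14) from Control, with an interval from -0.16 to 0.46. Both intervals include 0.

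The glycoproteins of fibres and adhesion showed a pattern closer to Lum. Fn1 encodes fibronectin, the adhesive glycoprotein that integrins bind. It measured 5.02, 4.57, 4.98 and 4.89 in Sham, 4.30 to 4.98 in Control (median 4.59) and 4.83 to 5.17 in 5-ASA (median 4.92). All 6 5-ASA mice were above the Control median, while Control 1 and 2 (4.98 and 4.90) lay among them. The group means were 4.87 ± 0.20 (SD, n = 4), 4.62 ± 0.28 (SD, n = 6) and 4.97 ± 0.13 (SD, n = 6). 5-ASA was 0.35 (SE 0.12) from Control, 1.27-fold higher, with a 95% interval from 0.09 to 0.61 (limma, adjusted p = 0.999 over all genes). The difference was 0.08 on slide 1 and 0.62 on slide 2. Control was -0.25 (SE 0.14) from Sham, and that difference lay on slide 2 (-0.51) and not on slide 1 (0.02).

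Fbn1 encodes fibrillin-1, the scaffold of elastic microfibrils. It measured 0.52, 0.28, 0.12 and 0.25 in Sham, -0.43 to 0.37 in Control (median 0.09) and 0.09 to 0.61 in 5-ASA (median 0.33). Control 2, 3 and 4, at 0.02, -0.43 and -0.23, were below every Sham and 5-ASA mouse, and the other 3 Control mice overlapped them. 5-ASA was 0.31 (SE 0.13) from Control, with a 95% interval from 0.02 to 0.60 (limma, adjusted p = 0.999), and 0.29 and 0.33 on slides 1 and 2. Control was -0.26 (SE 0.15) from Sham, and -0.17 without Control 3. 5-ASA and Sham were 0.05 (SE 0.15) apart.

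The matricellular proteins act on cells and are not part of the scaffold itself. Postn encodes periostin, made by activated fibroblasts and crypt-base fibroblasts. It measured 3.72, 3.09, 3.34 and 3.29 in Sham, 2.64 to 3.68 in Control (median 3.10) and 3.22 to 3.54 in 5-ASA (median 3.33). Control 3, 4 and 6, at 2.90, 2.64 and 2.82, were below every Sham and 5-ASA mouse. Control 1, at 3.68, was above every 5-ASA mouse. Control was -0.24 (SE 0.18) from Sham and 5-ASA 0.24 (SE 0.16) from Control, and the means of Sham and 5-ASA were both 3.36. Control against Sham was -0.12 without Sham 1 and -0.15 without Control 4, and 5-ASA against Control was 0.14 without Control 4.

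Sparc encodes osteonectin, a collagen-binding protein that guides procollagen assembly. Its brighter probe measured 6.80, 6.60, 6.87 and 6.76 in Sham, 5.99 to 6.74 in Control (median 6.57) and 6.61 to 6.92 in 5-ASA (median 6.73). Control 3 and 4, at 5.99 and 6.001, set the low end, and the other 4 Control mice ran from 6.50 to 6.74. Control was -0.32 (SE 0.15) from Sham (limma, adjusted p = 0.559) and 5-ASA 0.33 (SE 0.13) from Control (limma, adjusted p = 0.999). That probe lies in spot row 373 of 384, among the outer 12. The other probe, in row 119, gave -0.34 and 0.25 for the same comparisons, and it too was lowest in Control 3 and 4, with 1.73 in Control 4. Against Sham, 5-ASA was 0.0050 by the first probe and -0.09 by the other.

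Among the surface proteins, Fap encodes fibroblast activation protein, a serine protease of activated fibroblasts. It measured 1.11, 0.78, 1.13 and 1.05 in Sham, -0.22 to 1.05 in Control (median 0.66) and 0.82 to 1.00 in 5-ASA (median 0.88). The 5-ASA mice were packed within 0.18, and Control 4 stood at the low end of all 16 mice. Control was -0.43 (SE 0.18) from Sham, 1.35-fold lower (limma, adjusted p = 0.559), and -0.27 without Control 4. 5-ASA was 0.31 (SE 0.16) from Control (limma, adjusted p = 0.999), and 0.14 without Control 4.

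Pdgfra encodes the PDGF receptor alpha, carried by most gut fibroblasts and at a high level by those that send signals to crypts. It was the one gene of the 10 whose Control mean lay above the Sham mean. It measured 1.68, 1.26, 1.34 and 1.47 in Sham, 1.34 to 1.68 in Control (median 1.50) and 1.17 to 1.64 in 5-ASA (median 1.44), so that the 3 groups overlapped throughout. Control was 0.06 (SE 0.11) from Sham, with a 95% interval from -0.18 to 0.30, and 5-ASA -0.07 (SE 0.10) from Control, with an interval from -0.28 to 0.15. The mean of 10 spots stood behind each Pdgfra value, against 1 spot for each other probe.

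Thy1 encodes the surface glycoprotein CD90 of fibroblasts, T cells and neurons. It measured 2.59, 2.49, 2.73 and 2.45 in Sham, 1.73 to 2.38 in Control (median 2.08) and 1.78 to 2.41 in 5-ASA (median 2.28). Every one of the 12 DSS-treated mice was below every Sham mouse. No other gene of the 10 was without overlap in a comparison of the groups, beside 0.619% of all genes lower without overlap for Control against Sham, 0.754% for 5-ASA against Sham and 0.139% without overlap in either direction for 5-ASA against Control. Control was -0.47 (SE 0.14) from Sham, 1.38-fold lower (limma, adjusted p = 0.559), with -0.52 and -0.41 on slides 1 and 2 and -0.35 with the row as a covariate. The value with the row as a covariate rests on Control 1, 2, 4 and 5 alone. 5-ASA was -0.38 (SE 0.14) from Sham, 1.30-fold lower (limma, adjusted p = 0.358), with -0.50 and -0.26 on the slides. Both comparisons share the 4 Sham mice. The 2 DSS groups differed by 0.08 (SE 0.13), with an interval from -0.19 to 0.35. Of the T cell markers, 8 of 9 were tested, and 7 of 8 were lower in Control than in Sham (median -0.42) and 8 of 8 lower in 5-ASA than in Sham (median -0.61), none called by limma. Their summed level ran from 6.05 to 13.3 in Sham, 6.49 to 15.6 in Control and 5.20 to 9.14 in 5-ASA. Their part in the Thy1 result was not tested.

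**Figure D2:**
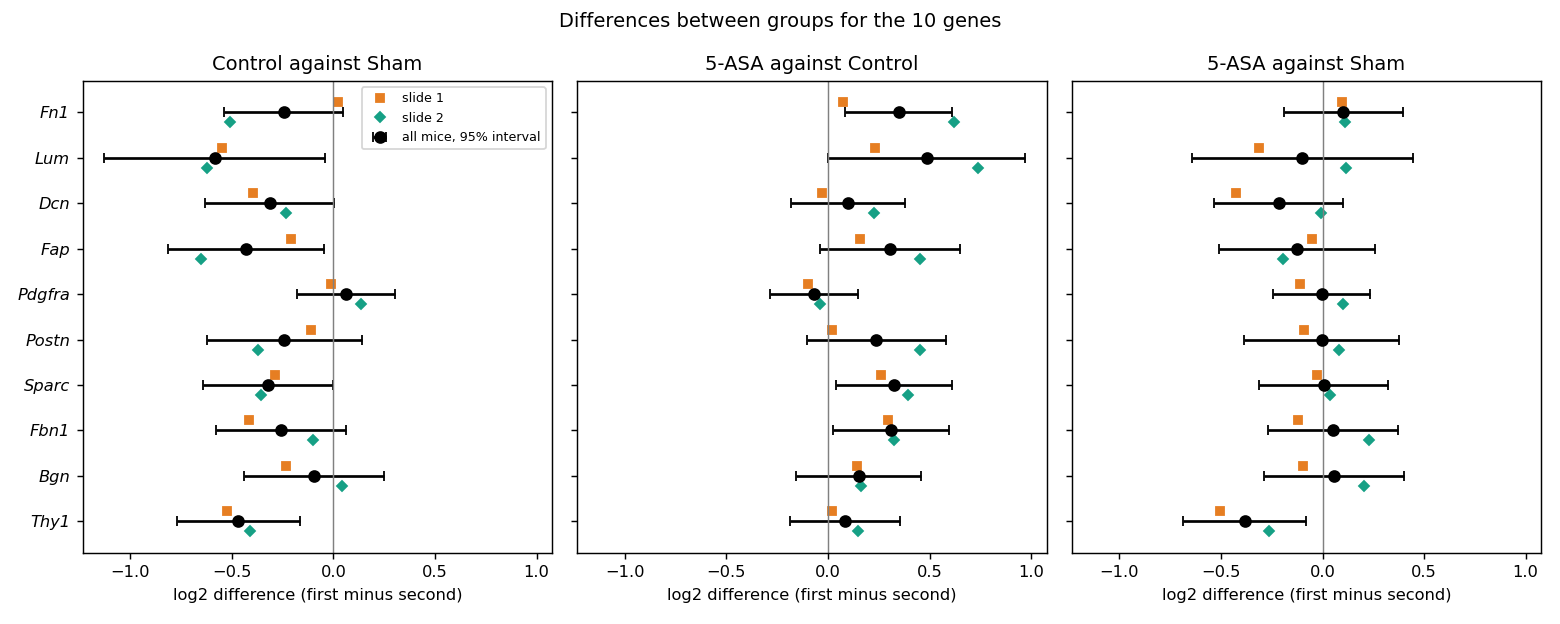
Log2 difference between groups (horizontal axis) for each of the 10 genes with its 95% interval from limma over all mice, and the difference within slide 1 (square) and slide 2 (diamond). Control against Sham lies mostly left of 0 with a median of -0.29, 5-ASA against Control mostly right of 0 with a median of 0.27, and Thy1 alone has an interval left of 0 for 5-ASA against Sham.

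Slide and array row were set against these values. Within slides 1 and 2, Control differed from Sham by -0.55 and -0.62 for Lum, -0.40 and -0.23 for Dcn, -0.21 and -0.65 for Fap, -0.11 and -0.37 for Postn, and -0.29 and -0.36 for Sparc. 5-ASA differed from Control by 0.23 and 0.74 for Lum, 0.16 and 0.45 for Fap, 0.02 and 0.45 for Postn, and 0.26 and 0.39 for Sparc, so each was larger on slide 2. With the row as a covariate, Control against Sham gave -0.24 for Dcn, -0.18 for Fbn1, -0.17 for Fn1, -0.11 for Postn, -0.26 for Sparc and -0.42 for Fap, each nearer 0 than without it. All Sham arrays lay in row 1, so these values rest on Control 1, 2, 4 and 5 alone and leave out Control 3 and 6. In 5-ASA against Control, the fit with the row gave 0.50 for Fn1, 0.45 for Sparc, 0.47 for Fbn1, 0.50 for Postn and 0.34 for Fap. Each was larger than without it, but all 5-ASA arrays lay in row 2. These values therefore rest on Control 3 and 6 alone, mice with diarrhea scores of 1.5 and 1.

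The order of the group means differed between genes, but few neighbours in it were apart beyond their spread. Control was the lowest group for Lum, Dcn, Fap, Fn1, Postn, Sparc, Fbn1, Bgn and Thy1. 5-ASA differed from Sham by -0.13 (Fap) to 0.10 (Fn1) for each gene except Dcn (-0.22) and Thy1 (-0.38). For Pdgfra, Postn and Sparc they differed by -0.0046, -0.0049 and 0.0050, each within an SE of at least 0.11.

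The Control mice also spread more widely for some of the genes. The SD among Control mice was larger than among 5-ASA mice for 6 of the 10 genes, beside 48.6% of all genes. It was over 2 times larger for 5 of the 10, Fap, Lum, Postn, Sparc and Fn1, at ratios of 6.24, 4.15, 3.10, 3.03 and 2.08, beside 13.1% of all genes. For Dcn, Pdgfra, Bgn and Thy1 it was smaller in Control, at ratios from 0.766 to 0.949. No test of the variances was made. The Control arrays lay in both array rows and the 5-ASA arrays in row 2 alone, so any row difference enters the Control SD only. Its part was not tested.

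For 4 of the genes the low Control values came from the same animals. Control 3, 4 and 6 were the lowest 3 Control mice for Fn1, Lum, Fap and Postn. The lowest 3 were Control 2, 3 and 4 for Sparc and Fbn1, and other sets for Dcn, Thy1, Bgn and Pdgfra. The labels give these 3 mice the highest diarrhea scores at day 28, 1.5, 1 and 1, where Control 1, 2 and 5 had 0.5 and no Sham or 5-ASA mouse was above 0.5. This grouping was made after the values were seen, and 3 against 3 mice were not tested. Lum averaged 1.93 ± 0.12 (SD, n = 3) in the higher-scoring and 2.99 ± 0.32 (SD, n = 3) in the lower-scoring Control mice, a difference of -1.06. Postn differed by -0.67, Fap by -0.58 and Fn1 by -0.42. These 4 of 10 genes were lower without overlap, beside 12.2% of all genes. Sparc, Fbn1 and Dcn also had the lower mean in the higher-scoring mice, by -0.45, -0.39 and -0.28, but with overlap. Pdgfra and Thy1, each at -0.12, and Bgn, at 0.03, differed least.

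**Figure D3:**
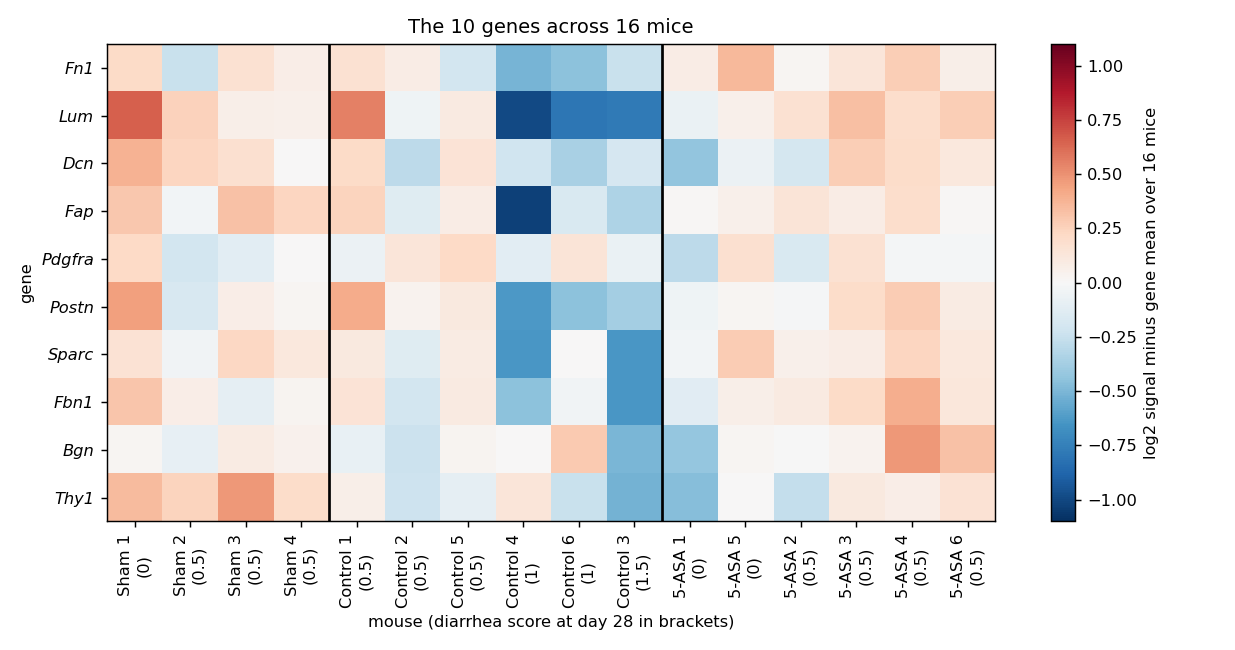
Log2 signal of each gene minus its mean over 16 mice (colour) for the mice of the 3 groups, which vertical lines separate and diarrhea score orders within a group. The low values of Lum, Postn, Fn1 and Fap lie in Control 4, 6 and 3, with scores of 1, 1 and 1.5, and the row of Pdgfra shows no such block.

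Because the higher-scoring mice held the low values, leaving them out draws the Control mean up by construction, and the values that follow describe how much of each difference lay in them. With the 3 lower-scoring Control mice alone, the median over the 10 genes was -0.079 for Control against Sham in place of -0.29, and 0.02 for 5-ASA against Control in place of 0.27. 5-ASA against Control had Lum at -0.04, Postn at -0.10, Fap at 0.02, Fn1 at 0.14 and Sparc at 0.10. Control against Sham had Lum at -0.06, Fap at -0.14, Fn1 at -0.04, Postn at 0.09 and Sparc at -0.10. Thy1 was still -0.41 from Sham. Control 3 and 6 were hybridised in the second row of arrays and Control 4 in the first.

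Markers of other cell types also differed in these mice. All 10 smooth muscle markers had a lower mean in Control than in Sham (median -0.34) and a higher one in 5-ASA than in Control (median 0.41), and none was called by limma. Their summed level was 483 to 971 in Sham, 566 to 791 in 5-ASA, 265 to 542 in the 3 higher-scoring Control mice and 544 to 949 in the other 3. The low levels were those of Control 4 and 6, at 322 and 265, while Control 3, at 542, lay beside Control 5, at 544. Of the 10 markers, 5 were lower without overlap in the higher-scoring mice, beside 12.2% of all genes. The 8 markers of enteric glia and neurons were likewise all lower in Control than in Sham (median -0.33) and all higher in 5-ASA than in Control (median 0.37), with summed levels of 2.58 to 6.37 in the higher-scoring and 6.52 to 9.60 in the lower-scoring Control mice. Here too Control 3, at 6.37, lay beside Control 5, at 6.52, and Control 4 and 6 were at 2.58 and 3.31. Of these 8 markers, 4 were lower without overlap in the higher-scoring mice. B cell markers ran the other way within Control, at 5.40 to 43.5 in the higher-scoring and 1.13 to 3.83 in the lower-scoring mice, and spanned 0.980 to 36.8 in Sham. Of 5 neutrophil markers, S100a8 and S100a9, which encode the calprotectin of neutrophils, were higher without overlap in the higher-scoring mice. Csf3r went the other way without overlap, at 7.12, 6.89 and 7.11 in Control 3, 4 and 6 and 7.24, 7.13 and 7.27 in Control 1, 2 and 5. The share of all genes higher without overlap in these mice was not set beside S100a8 and S100a9. S100a8 was at -0.47, 1.44 and 0.05 in Control 3, 4 and 6 and at -4.40, -1.46 and -4.72 in Control 1, 2 and 5. The mean of the 5 markers, each centred on its mean over 16 mice, was 0.50, 1.97 and 1.80 in the former and -1.25, -0.34 and -0.88 in the latter, while their summed level, most of it from the Csf3r probe, was 127 to 143 and 141 to 155. Endothelial markers overlapped, at 11.2 to 14.4 and 11.3 to 13.9. The part of these cells in the results for the 10 genes was not tested.

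The rest of the matrix was counted in 10 lists of 125 further genes, of which 121 were tested and none was called by limma in any comparison. In Control against Sham 96 of the 121 had a negative difference, with a median of -0.19, and 12 lower and 1 higher passed an unadjusted p of 0.05, where 3.23% of all genes were lower and 5.65% higher. In 5-ASA against Control 99 were above 0, with a median of 0.18, and 8 higher and 1 lower passed it, where 1.41% of all genes were higher and 2.64% lower. In 5-ASA against Sham 59 were above 0 and 62 below, with a median of -0.01.

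Structural proteins of the matrix are given first. All 11 fibrillar and associated collagens were lower in Control than in Sham (median -0.25) and higher in 5-ASA than in Control (median 0.33). Col1a1 and Col3a1, chains of the main fibrillar collagens, were at -0.41 (SE 0.23) and -0.37 (SE 0.25) in the first comparison and at 0.47 (SE 0.20) and 0.46 (SE 0.22) in the second. Of 16 elastic fibre genes, 14 were lower in Control than in Sham and 15 higher in 5-ASA than in Control, with medians of -0.21 and 0.25. Eln, which encodes elastin, was at -0.29 (SE 0.24) and 0.55 (SE 0.21), and the fibulin gene Fbln1 at -0.21 (SE 0.24) and 0.36 (SE 0.21). Of the 10 further small leucine-rich proteoglycans tested, 8 were lower in Control than in Sham (median -0.35) and 7 higher in 5-ASA than in Control (median 0.11). Ogn, which encodes osteoglycin, was at -0.49 (SE 0.22) and 0.27 (SE 0.19), and Prelp at -0.15 (SE 0.40) and 0.14 (SE 0.36).

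Matricellular and adhesive glycoproteins followed, with 15 of 19 lower in Control than in Sham and 15 higher in 5-ASA than in Control. Tnc, which encodes tenascin-C of wounds and tumour stroma, was at -0.25 (SE 0.44) and 0.59 (SE 0.39). Thbs1, which encodes thrombospondin-1, an activator of latent TGF-beta, was at -0.37 (SE 0.24) and 0.28 (SE 0.22), and Sparcl1, a relative of Sparc, at -0.32 (SE 0.28) and 0.31 (SE 0.25). Of 15 collagen-processing genes, 11 were lower in Control than in Sham and 14 higher in 5-ASA than in Control. Lox, the enzyme that crosslinks collagen and elastin, was above 0 in both, at 0.20 (SE 0.28) and 0.17 (SE 0.25).

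Signals and receptors had medians nearer 0. Of the 5 other PDGF genes, 3 were lower in Control than in Sham, with a median of -0.01. Pdgfa, a ligand of the Pdgfra receptor, was at -0.17 (SE 0.15) in Control against Sham and -0.11 (SE 0.13) in 5-ASA against Control, and Pdgfrb, the second PDGF receptor, at 0.01 (SE 0.12) and 0.08 (SE 0.10). TGF-beta genes split 5 and 5 in both comparisons. Tgfb1 was at -0.31 (SE 0.27) in 5-ASA against Control. Of 8 integrin and syndecan receptors, 7 were lower in Control than in Sham (median -0.13), with Itga5, a chain of the fibronectin receptor, at -0.23 (SE 0.22).

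Markers of fibroblast identity outside the 10 genes were lower in Control than in Sham for 18 of 19 (median -0.21) and higher in 5-ASA than in Control for 17 of 19 (median 0.19). Vim, the intermediate filament of mesenchymal cells, was at -0.40 (SE 0.18) and 0.21 (SE 0.16), and Dpt, which encodes the matrix protein dermatopontin, at -0.31 (SE 0.24) and 0.19 (SE 0.21). Of the signals that fibroblasts send to crypts, 4 of 10 were lower in Control than in Sham, with a median of 0.01, while 9 of 10 were higher in 5-ASA than in Control, with a median of 0.17. Grem1, which encodes a BMP antagonist of the crypt base, was at -0.21 (SE 0.20) and 0.37 (SE 0.18).

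**Figure D4:**
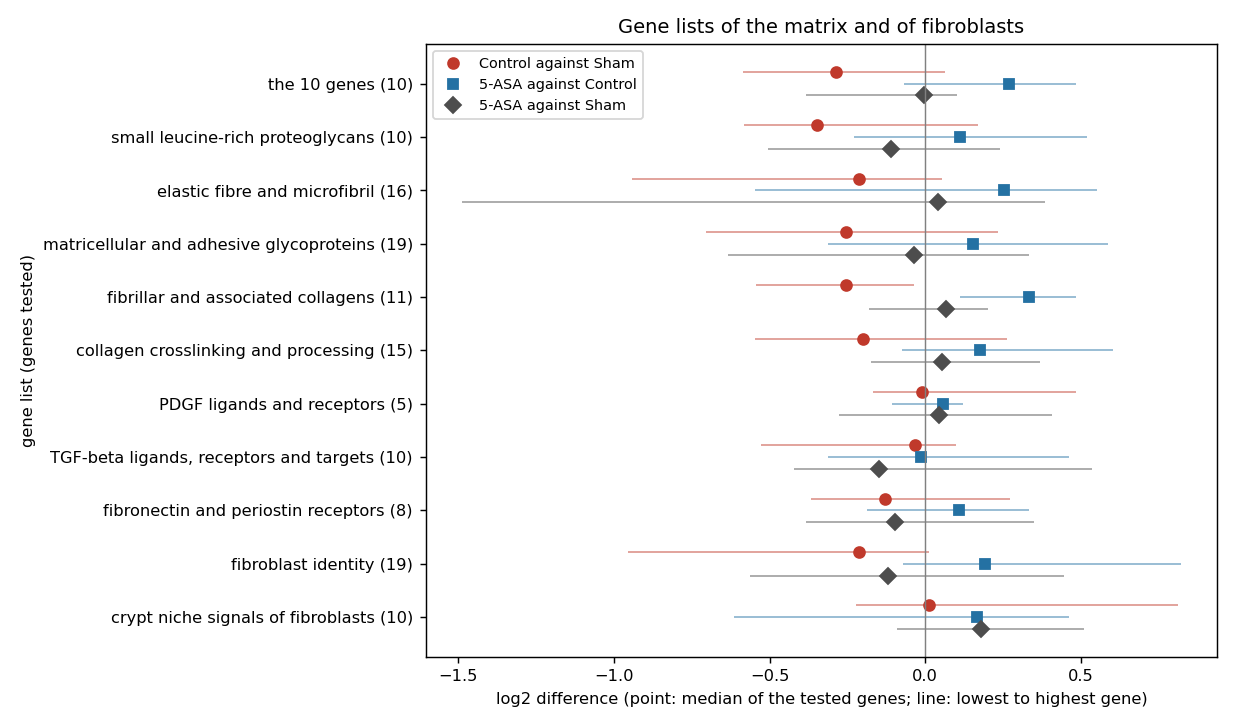
Log2 difference (horizontal axis) for the 10 genes and for 10 lists of related genes, with the median of each list as a point and its lowest to highest gene as a line, in the 3 comparisons. The collagens have a median of -0.25 for Control against Sham and 0.33 for 5-ASA against Control, and the PDGF list -0.01 and 0.06.

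Over the 16 arrays, the genes whose level most resembled the mean of the 10 were Thbs3 (Pearson r = 0.956), Rcn3 (0.955), Odf3b (0.954), Ogn (0.952) and Col16a1 (0.952). Thbs3 encodes a thrombospondin, Rcn3 a calcium-binding protein of the secretory pathway and Col16a1 a fibril-associated collagen. Without Control 3, 4 and 6 the values over 13 arrays were 0.847, 0.903, 0.847, 0.910 and 0.916. These are descriptions of likeness in samples that share arrays and tissue makeup, and the genes were picked as the highest of all tested.

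Promoter sequence was held for Bgn, Fbn1, Pdgfra, Postn (2 starts) and Sparc in the RefSeq table of GRCm38.p6. The 100 bases before the start of Bgn and Pdgfra, which differed little with the score, and of the downstream Postn start, whose gene was low in the same mice as Lum, are shown in transcript direction. Fbn1 and Sparc, which also had a lower mean in the higher-scoring mice, hold no TATAAA and are not shown. A link of promoter sequence to the score was not tested. Capitals mark TATAAA in Postn and GGGCGG, read here on the opposite strand as CCGCCC, in Bgn.
Postn, chr3:54361007-54361106, plus strand: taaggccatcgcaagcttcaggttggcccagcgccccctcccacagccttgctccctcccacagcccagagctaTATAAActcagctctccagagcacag
Bgn, chrX:73483501-73483600, plus strand: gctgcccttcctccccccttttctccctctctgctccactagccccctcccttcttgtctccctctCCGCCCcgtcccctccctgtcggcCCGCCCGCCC
Pdgfra, chr5:75152151-75152250, plus strand: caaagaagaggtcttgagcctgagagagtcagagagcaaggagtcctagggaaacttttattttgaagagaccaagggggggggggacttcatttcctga
Over 250 bases upstream and both strands, TATAAA occurred in the downstream Postn start alone among the 6 promoters held, and in 12.4% of all 32851 promoters. GGGCGG occurred 3 times in Bgn, with an overlapping pair, and once in Fbn1, and in 32.7% of all promoters. CAGAC occurred once each in the upstream Postn start, Pdgfra and Sparc, and in 42.2% of all, and CCAAT in none of the 6 and 33.8% of all. These are matches of letters and were not tested as sites.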

How the data were processed

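Cy3-labelled cRNA of 16 colon samples was hybridised to 1-colour Agilent arrays, 1 per sample, per the labels' protocols. Per the file headers, Agilent Feature Extraction 10.10.1.1 subtracted the background from each spot's intensity and applied no scaling across arrays. Its flags (well above background, saturated, outlier) are deposited as a code of 0 or 1. The authors' deposited value table holds log2 values whose scale, centring and direction are not stated. It matched the scanner values as log2 intensity relative to the 75th percentile, centred on the Sham median, with r from 0.992 to 0.998. Its column medians were -0.00085, -0.05, 0.07 and -0.0065 for Sham 1 to 4, -0.03, -0.06, 0.21, -0.19, -0.04 and 0.15 in the 6 Control columns in order, and 0.22, 0.18, 0.14, 0.14, 0.11 and 0.11 in those of 5-ASA.

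From the scanner files, the 75th percentile of an array was subtracted from the log2 processed intensity of its non-control probes, and spots of a probe were averaged. The filter asked for a signal well above background on 4 or more of the 16 arrays and kept 35079 probes. A gene was represented by its brightest kept probe. Names came from the files, or by accession from RefSeq (27650 of 55681 probes). The 3 groups were fitted in 1 limma 3.58.1 model (R 4.3.3), without covariates, with two-sided tests and Benjamini-Hochberg adjustment over all 24541 genes, called at 0.05. The fit was tested on simulated data. The p-values set a group difference against the spread between these mice, which with 1 array per mouse includes variation between arrays. The 10 genes, the further lists, the marker lists and the settings were chosen with earlier results of these data known. All 10 genes and 17 further ones were named whatever their values, and the 5 most alike genes by Pearson r. Replicate numbers were checked as pairs and not used as such, because same-numbered samples did not all deviate together (8 of 14 correlations over 0.1). Alternatives covered background correction, scaling, filter, probe choice, samples in the fit, the deposited table, slide, array row, outer spot rows, replicate block and leaving out each mouse.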

Additional observations from a re-analysis of the deposited data

How the results depend on the processing

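None of the 10 genes was called under any alternative in which it was tested. Dcn, whose probe lies in the outer 12 spot rows, was not tested without them. The lowest adjusted p in limma was 0.364 (Thy1) when Control was set against Sham, 0.126 (Fn1) for 5-ASA against Control, and 0.120 (Thy1) when 5-ASA was set against Sham. None of these came from leaving out a mouse, where the lowest adjusted p in limma was 0.376, 0.767 and 0.184 in the same order. The settings with lower-scoring Control mice alone, 1 array row alone and the other Sparc probe were chosen after seeing the data. Adding array row for 5-ASA against Sham was not run, because these groups share no row. Genes called over the whole array, 13 for Control against Sham, were 0 with probes well above background on all 16 arrays, 6 with only the 2 groups, 4 and 1 within slides 1 and 2, 0 without the outer 12 spot rows, 6 with lower-scoring Control mice and 1 in the first row. For 5-ASA against Control, 0 became 2937 with no filter, 1 within slide 2 and 7 with the row as a covariate. For 5-ASA against Sham, 13 became 3271 with no filter, 0 with the strict filter, 2 and 4 within the slides and 0 without the outer rows. Leaving out each mouse gave 9 to 14, 0 and 10 to 22 genes in the 3 comparisons, the 22 without 5-ASA 4. The cause was not tested.

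With lower-scoring Control mice the median of the 10 genes was -0.079 for Control against Sham and 0.021 for 5-ASA against Control, and it ran over leave-one-out from -0.37 to -0.22, 0.16 to 0.36 and -0.079 to 0.045 in the 3 comparisons. Some single genes reversed direction. In Control against Sham these were Fn1 (0.020) and Pdgfra (-0.011) on slide 1, Bgn on slide 2 (0.043) and Postn with lower-scoring Control mice (0.092). In 5-ASA against Control these were Dcn on slide 1 (-0.031), and Lum (-0.043), Dcn (-0.040) and Postn (-0.097) with lower-scoring Control mice. In 5-ASA against Sham, Sparc turned with normexp (-0.054), quantile (-0.014) or median scaling (-0.019), the mean of probes (-0.041), slide 1 (-0.025), and without the outer rows or with its other probe (-0.087). Fbn1 (-0.12) and Bgn (-0.095) turned on slide 1, and Lum (0.12), Pdgfra (0.0996) and Postn (0.082) on slide 2. Leaving out a mouse turned Lum (-0.17 to 0.033), Pdgfra (-0.064 to 0.077), Postn (-0.094 to 0.11), Sparc (-0.046 to 0.042), Fbn1 (-0.0062 to 0.13) and Bgn (-0.025 to 0.15).

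Replicate numbers are shared between groups, but same-numbered samples correlated at -0.21 to 0.61, over 0.1 in 8 of 14 pairs, and 3 of 12 Control and 5-ASA samples correlated best with their own number. With the number as a replicate block none of the 10 genes was called, and 9, 0 and 11 genes over the whole array. Postn (0.0084), Sparc (-0.075) and Bgn (-0.030) then turned for 5-ASA against Sham.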

Other observations

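Of the 10 genes, 8 had their lowest 5-ASA value in 5-ASA 1 (Lum, Dcn, Pdgfra, Postn, Sparc, Fbn1, Bgn and Thy1), a mouse with a diarrhea score of 0. The array of 5-ASA 1 had 53.0% of spots well above background, the lowest share of any array. Its part in these low values was not tested. Sham 1 was the highest Sham mouse for 6 of the 10, and Control 1 the highest Control mouse for 7. No share over all genes was set beside these counts. The T cell, B cell, adipocyte and mesothelium marker lists were lower in 5-ASA than in Sham for 8 of 8, 7 of 7, 5 of 5 and 6 of 6 genes, with medians of -0.61, -2.15, -0.71 and -0.42. Their summed levels overlapped, in Sham at 6.05 to 13.3, 0.980 to 36.8, 5.88 to 66.0 and 6.18 to 11.9 in the same order. In 5-ASA they were 5.20 to 9.14, 1.27 to 3.26, 4.41 to 41.1 and 4.73 to 8.41. Array row and group cannot be told apart in this comparison. Of the 7 macrophage markers tested, 5 were higher in Control than in Sham (median 0.04) and 7 lower in 5-ASA than in Control (median -0.14). Of the 5 neutrophil markers tested, 2 were higher in Control than in Sham (median -0.05) and 3 lower in 5-ASA than in Control (median -0.65). None of these genes was called by limma, in which 13, 0 and 13 genes were called over the whole array in the 3 comparisons.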
